A study of Mus musculus with 18 samples.

Results

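The 40 genes described here are known from endothelial cells, the lining of blood and lymph vessels, and were measured in mouse skeletal muscle. Some are not confined to these cells, among them Ets1, Cd93 and Lyve1. The 40 are the rows of a list of endothelial genes in the deposited table. Thus 40 of its 12558 genes were followed through all 18 libraries. All 40 were in the table and passed the filter on low values, which asked for a CPM (the deposited value, reads scaled for library size) of at least 1 in at least 3 libraries. The lowest of them in any library still had 32 reads.

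The series concerns activation of the nuclear receptor NURR1 in muscle and the energy balance of the whole animal. Its 6 groups had 3 libraries each, labelled as biological replicates, and were kept on their diets for 10 weeks. In 4 groups wild-type mice ate normal chow or a high-fat diet (HFD), and on either diet 1 group was given AQ in its drinking water and 1 was not. The remaining 2 groups ate HFD without AQ and were Nurr1 transgenic mice (Nurr1-mTg) and the wild-type mice labelled as controls of the transgene. AQ is not spelled out in the labels and no dose is stated. The sources used here do not state the promoter behind the transgene, the muscle sampled, age, sex or the number of animals per library.

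Endothelial cells are specified and maintained by transcription factors of the ETS and SOX families. They are joined by cadherins and claudins, and they respond to vascular endothelial growth factor (VEGF), angiopoietins and Notch ligands. In skeletal muscle most of them line capillaries, which deliver oxygen and bind the lipase that frees fatty acids for the fibres. In bulk RNA of a tissue, fewer endothelial cells and less RNA per endothelial cell cannot be told apart.

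The libraries held 10404895 to 16082994 reads. Nr4a2, which encodes NURR1, was at 18.8 to 30.1 CPM in the transgenic group and at no more than 4.79 CPM in any other library. Muscle fibre markers summed to between 125532 and 176823 CPM, so markers of the labelled tissue were abundant in every library. All 53 markers of other cell types found in the table, of 60 listed, were above 0 in each group. One further measure moved with the groups. A score of clock genes, log2(CPM + 1) of Arntl minus that of Dbp, ran from -1.62 to -0.24 in chow with AQ and from -1.92 to -1.43 in the transgene controls. It ran from -3.93 to -3.43 on HFD, from -4.65 to -3.95 on HFD with AQ and from -3.28 to -2.96 in the transgenic mice. The chow libraries spread from -4.37 to -0.65. The sources used here state no sampling times. The score did not overlap between chow with AQ and HFD with AQ, nor between transgenic mice and their controls. It was also apart, narrowly, between HFD and HFD with AQ, at -3.93 or above against -3.95 or below. A fit with the score as a covariate, chosen after the data were seen, is given below where it ended a call or moved a value.

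Some starts of transcription are shown first, for 4 of the genes called below. The set of RefSeq start sites (GRCm38.p6) used here covered only 19 of the 40 genes, and the 250 bases before each start were searched. Capitals mark the letters AGGAAG, on either strand, which hold the GGAA core that ETS factors such as ERG and FLI1 bind.
Erg start 1 (chr16:95586594-95586843, minus strand): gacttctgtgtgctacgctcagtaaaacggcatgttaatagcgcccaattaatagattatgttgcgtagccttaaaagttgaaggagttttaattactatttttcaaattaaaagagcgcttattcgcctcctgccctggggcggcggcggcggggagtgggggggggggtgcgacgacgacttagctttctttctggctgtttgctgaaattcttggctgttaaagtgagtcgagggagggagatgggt
Erg start 3 (chr16:95459349-95459598, minus strand): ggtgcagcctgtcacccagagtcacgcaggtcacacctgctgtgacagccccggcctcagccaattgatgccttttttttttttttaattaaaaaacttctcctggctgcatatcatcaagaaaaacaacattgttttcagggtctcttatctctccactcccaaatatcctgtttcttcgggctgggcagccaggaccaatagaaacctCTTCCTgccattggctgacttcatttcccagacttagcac
Flt1 (chr5:147726012-147726261, minus strand): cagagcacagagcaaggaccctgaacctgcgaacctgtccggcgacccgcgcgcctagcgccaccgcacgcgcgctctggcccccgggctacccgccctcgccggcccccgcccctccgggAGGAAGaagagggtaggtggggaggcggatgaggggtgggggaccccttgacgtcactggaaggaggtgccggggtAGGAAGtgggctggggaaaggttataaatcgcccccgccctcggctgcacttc
Aqp1 (chr6:55336049-55336298, plus strand): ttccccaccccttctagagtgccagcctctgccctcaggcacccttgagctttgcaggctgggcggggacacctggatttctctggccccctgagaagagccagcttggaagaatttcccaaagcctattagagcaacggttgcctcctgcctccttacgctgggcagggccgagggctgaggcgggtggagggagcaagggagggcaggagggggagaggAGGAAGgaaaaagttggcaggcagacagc
Cldn5 (chr16:18776597-18776846, plus strand): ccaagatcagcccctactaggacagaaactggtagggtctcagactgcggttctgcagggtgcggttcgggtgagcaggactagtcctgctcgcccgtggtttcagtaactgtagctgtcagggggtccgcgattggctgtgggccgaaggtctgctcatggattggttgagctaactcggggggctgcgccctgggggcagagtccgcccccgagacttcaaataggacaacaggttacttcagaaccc

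The Flt1 window held the letters at 2 places, the Aqp1 window at 1 and the Cldn5 window at none. Of the Erg starts, the first had none and the third, inside the gene, had 1. The second Erg start and the start of Clec14a, searched but not printed, had none. AGGAAG occurred in 12 of the 24 windows of the 19 endothelial genes covered (50.0%) and in 29.5% of 32851 windows over the genome. ACAATG, letters that SOX factors bind, occurred in 2 of 24 (8.33%) and in 10.7% of all windows. CACCC, letters that KLF factors bind, occurred in 16 of 24 (66.7%) and in 52.0% of all. These are matches of letters and show no binding.

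Levels between genes were compared as CPM per kilobase of the longest annotated transcript, over all 18 libraries. Aqp1, the water channel of capillary endothelium, was by far the most abundant, at a mean of 187 CPM per kilobase. Cdh5 (VE-cadherin, the adherens junction protein) and Cd34, a surface sialomucin, followed at 31.8 each, with Pecam1 (CD31) at 27.6 and Egfl7, a secreted factor of vessel formation, at 24.0. The 8 transcription factors lay lower, between 0.719 for Tal1 and 9.03 for Sox18. Aqp1 stood apart from the next gene in every library, at 130 to 266 CPM per kilobase against at most 39.9 for Cdh5. Cdh5 and Cd34 overlapped, as did most neighbours further down.

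Variation was unequal among the genes. The coefficient of variation of the CPM over the 18 libraries had a median of 17.1%, and was 8.56% for Cd34, the steadiest. Bcl6b was the most variable at 42.8%, followed by Cldn5 at 30.1% and Sox18 at 28.0%. Cd34 lay at 83.4 to 109 CPM in all libraries, and Bcl6b at 5.08 to 20.2 CPM.

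In the heat map by role single genes departed from the rest of the list, and libraries also differed over the list as a whole. A library's position was taken as the median over the 40 genes of the difference from each gene's mean on the log2(CPM + 1) scale. The 3 HFD with AQ libraries lay at 0.11, 0.19 and 0.11, and the chow libraries at 0.08, -0.14 and -0.29. The other 12 libraries lay between -0.12 and 0.16. Positions of the chow and HFD groups overlapped, while those of HFD with AQ lay above both.

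**Figure D1:**
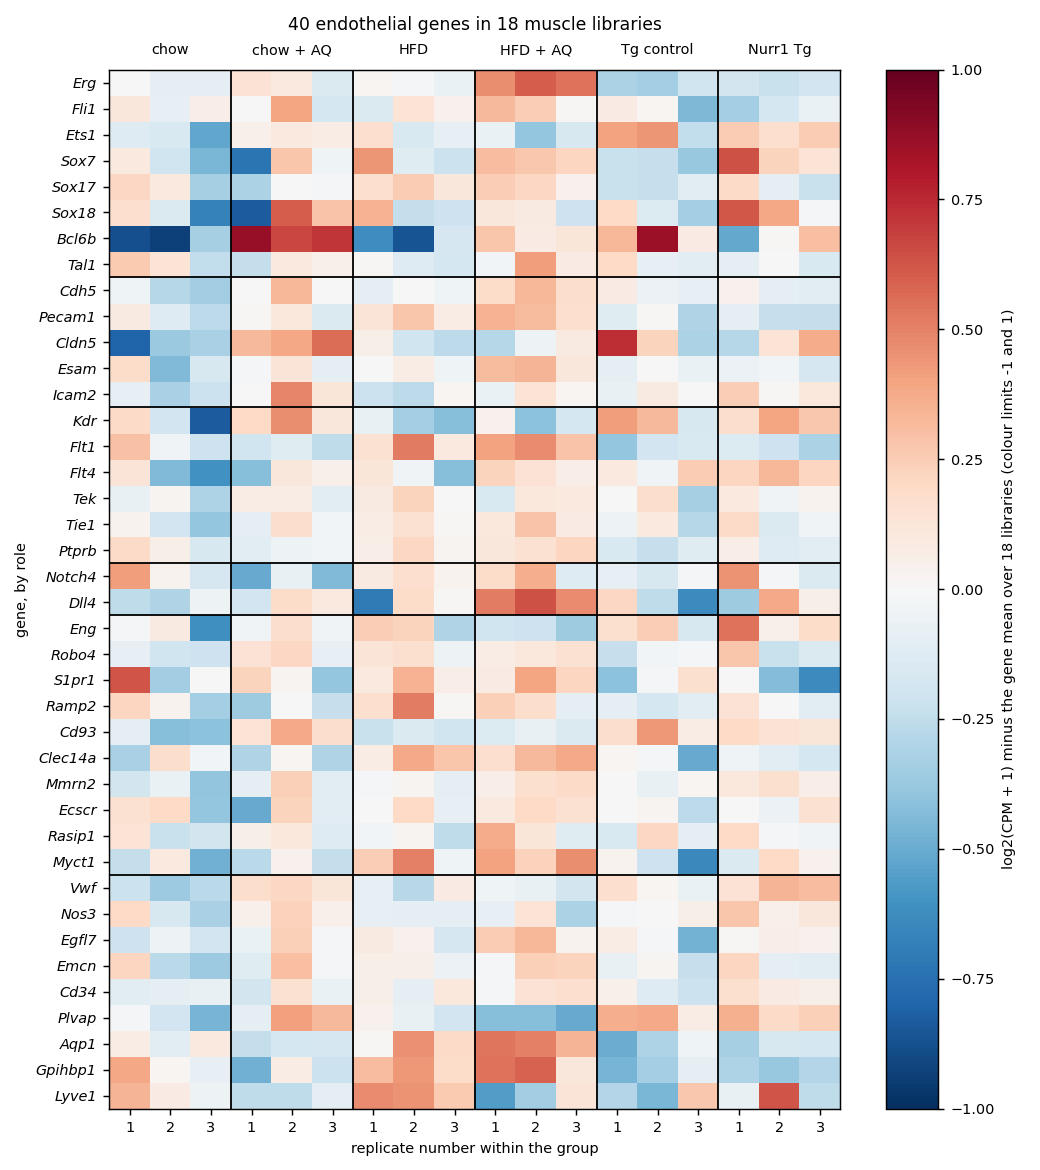
Heat map of the 40 endothelial genes (rows, by role, lines between roles) in the 18 libraries (columns, by group and replicate); colour is log2(CPM + 1) minus the gene's mean over the libraries, limited at -1 and 1. Erg and Dll4 are red in the 3 HFD with AQ libraries, and Bcl6b is red in the 3 of chow with AQ, where its CPM was 17.5 to 20.2, and in the second transgene control at 20.1.

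The effect of AQ on chow is the difference between chow with AQ and chow. There 4 of the 40 endothelial genes passed an adjusted p of 0.05 (limma), all of them higher with AQ, against 1.11% of all 12524 genes tested and 0.838% called higher. They were Bcl6b, Cd93, Vwf and Cldn5, each of another role. On the log2(CPM + 1) scale the median difference over the list was 0.14, and that over all genes -0.01. Above 0 lay 28 of the 40, and 48.3% of all genes. The median rested in part on single libraries: it was 0.0629 without chow replicate 3, 0.0669 without replicate 2 of chow with AQ, and 0.0152 with the clock score as a covariate. Without chow replicate 2 or replicate 2 or 3 of chow with AQ 1 call was left, and without its replicate 1 there were 2.

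Bcl6b, a zinc finger repressor enriched in endothelium, was read at 5.31, 5.08 and 8.22 CPM in the chow libraries (replicates 1 to 3, the order used throughout). With AQ it was at 20.2, 17.5 and 18.1 CPM. The groups lay far apart, with the lowest library with AQ at 17.5 and the highest without at 8.22 CPM. The log2 fold change was 1.47 ± 0.22 (SE; limma adjusted p = 0.00585), and it stayed past the threshold under all 16 alternatives tried. It was the only one of the 4 to pass with the clock score as a covariate, at 1.68 with an adjusted p of 0.0128.

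Cldn5, the main claudin of endothelial tight junctions, was at 5.15, 7.31 and 7.58 CPM on chow and at 12.5, 13.0 and 14.9 CPM with AQ, without overlap. The chow libraries lay below all 15 others of the series, which were at 7.62 to 17.0 CPM. A position below all others held for 0.359% of all genes tested in the chow group. The log2 fold change was 0.93 ± 0.21 (SE; limma adjusted p = 0.0451). This call was lost under 11 of the 16 alternatives, among them the replicate block (adjusted p = 0.0590), the clock score (adjusted p = 0.0705) and leaving out any of the 6 libraries, with adjusted p up to 0.170.

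Cd93, a lectin-like receptor of endothelial and myeloid cells, was at 59.1, 46.8 and 47.3 CPM on chow and at 69.5, 82.6 and 71.5 CPM with AQ. The groups did not overlap, and the log2 fold change was 0.54 ± 0.10 (SE, limma adjusted p = 0.0208). Vwf encodes von Willebrand factor, which is stored in endothelial granules and tethers platelets. It was at 43.8, 39.4 and 42.4 CPM on chow and at 57.9, 59.3 and 55.7 CPM with AQ, a log2 fold change of 0.45 ± 0.09 (SE, limma adjusted p = 0.0251). With the clock score as a covariate Cd93 was at an adjusted p of 0.0666 and Vwf at 0.0627. Both calls were also lost without chow replicate 2 or without replicate 2 or 3 of chow with AQ, and Vwf without replicate 1 of that group, with adjusted p up to 0.0750 for Cd93 and 0.101 for Vwf. Plain scaling to library totals and the fit of only the groups compared (adjusted p = 0.114 for Cd93) ended both calls, and removal of the GC trend that of Vwf.

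Other junction genes leaned the same way without passing. Cdh5 was at 108 ± 12 CPM (SD, n = 3) on chow and at 137 ± 19 CPM with AQ (log2 fold change 0.34, limma adjusted p = 0.0973). Icam2, an adhesion molecule for leukocytes, had a log2 fold change of 0.41 (adjusted p = 0.130), and its groups did not overlap. In all, the groups did not overlap in 10 of the 40 genes, 8 higher and 2 lower with AQ, against 19.8% of all genes, 10.9% higher and 8.97% lower. Other genes lay below 0 and did not pass. Aqp1 was at 489 ± 37 CPM on chow and 420 ± 12 CPM with AQ (log2 fold change -0.22, adjusted p = 0.379). Gpihbp1, which carries lipoprotein lipase to the capillary lumen, had a log2 fold change of -0.31 (adjusted p = 0.326). Notch4, the endothelial Notch receptor, was at 25.2 ± 5.5 and 18.3 ± 3.2 CPM (log2 fold change -0.44, adjusted p = 0.213).

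Leukocyte markers moved with AQ on chow too. All 10 in the table had a log2 fold change above 0, with a median of 0.38, and their summed level was 147 to 153 CPM on chow and 190 to 267 CPM with AQ. One of them, H2-Aa of antigen presentation, passed (log2 fold change 0.72, limma adjusted p = 0.0430), but not without any 1 of the 6 libraries (adjusted p up to 0.160) or with the clock score (adjusted p = 0.0736). Cd93 is also made by myeloid cells, and the part of leukocytes in its difference was not tested. Pericyte and smooth muscle markers summed to 896 to 939 CPM on chow and to 876 to 909 CPM with AQ. Of the 77 further genes of endothelial pathways in the table, Ece1, the endothelin-converting enzyme, passed. It was at 111 ± 14 and 154 ± 14 CPM (SD, n = 3; log2 fold change 0.47, limma adjusted p = 0.0332), and was lost without chow replicate 2 or any library of chow with AQ (adjusted p up to 0.130) and with the clock score (adjusted p = 0.0743).

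On HFD, mice with AQ were compared with mice without it. Only 1 of the 40 endothelial genes passed, Erg, against 0.0479% of all genes tested. Erg encodes an ETS factor that keeps endothelial cells quiescent and their junctions intact. The median difference over the list was 0.10 on the log2 scale and 0.00 over all genes, and 32 of 40 lay above 0, against 50.5% of all genes. Without HFD replicate 3 the median was 0.0587.

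Erg was at 11.2, 10.9 and 10.5 CPM on HFD and at 15.6, 17.3 and 16.5 CPM on HFD with AQ. The latter were the 3 highest of the series, and the 15 other libraries lay at 8.49 to 12.3 CPM. In the HFD with AQ group 1.35% of all genes tested stood above all other libraries in this way. The log2 fold change was 0.56 ± 0.09 (SE, limma adjusted p = 0.0267), and with the clock score as a covariate it was 0.56 (adjusted p = 0.0397). As the score did not overlap between HFD and HFD with AQ, its effect and that of AQ cannot be told apart here. The Erg call was lost when only the compared groups were fitted and without HFD replicate 1 or 2 or any library of HFD with AQ, with adjusted p up to 0.144. Its nearest relative in the list, Fli1, was at 10.1, 12.5 and 11.7 CPM on HFD and at 14.4, 13.6 and 11.4 CPM with AQ, and the groups overlapped (log2 fold change 0.18, adjusted p = 0.698).

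Dll4, the Notch ligand of arterial and sprouting endothelium, was the other gene whose HFD with AQ libraries lay above all 15 others. They were at 18.03, 19.7 and 17.6 CPM, and HFD alone was at 7.19, 14.2 and 12.5 CPM. The first HFD library was the lowest of the series, and the difference, 0.71 ± 0.22 on the log2 scale, did not pass (limma adjusted p = 0.199). Bcl6b was at 6.57, 5.40 and 9.36 CPM on HFD and at 13.1, 11.3 and 11.6 CPM with AQ, without overlap (log2 fold change 0.71 ± 0.22, adjusted p = 0.192). Lyve1, the hyaluronan receptor of lymphatic endothelium and of some macrophages, leaned the other way. It was at 17.8, 17.5 and 15.2 CPM on HFD and at 8.22, 9.66 and 13.9 CPM with AQ (log2 fold change -0.65 ± 0.22, limma adjusted p = 0.222). The groups did not overlap in 8 of the 40 genes, 6 higher and 2 lower, against 16.3% of all genes, 7.39% higher and 8.91% lower.

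None of the 77 pathway genes passed in this comparison. Among markers of other cells none passed either. The summed adipocyte markers were at 112 to 164 CPM on HFD and at 52.0 to 102 CPM with AQ, and 9 of 10 leukocyte and 6 of 7 fibroblast markers had log2 fold changes below 0, with medians of -0.27 and -0.50. The part of such a shift in the endothelial values was not tested.

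**Figure D2:**
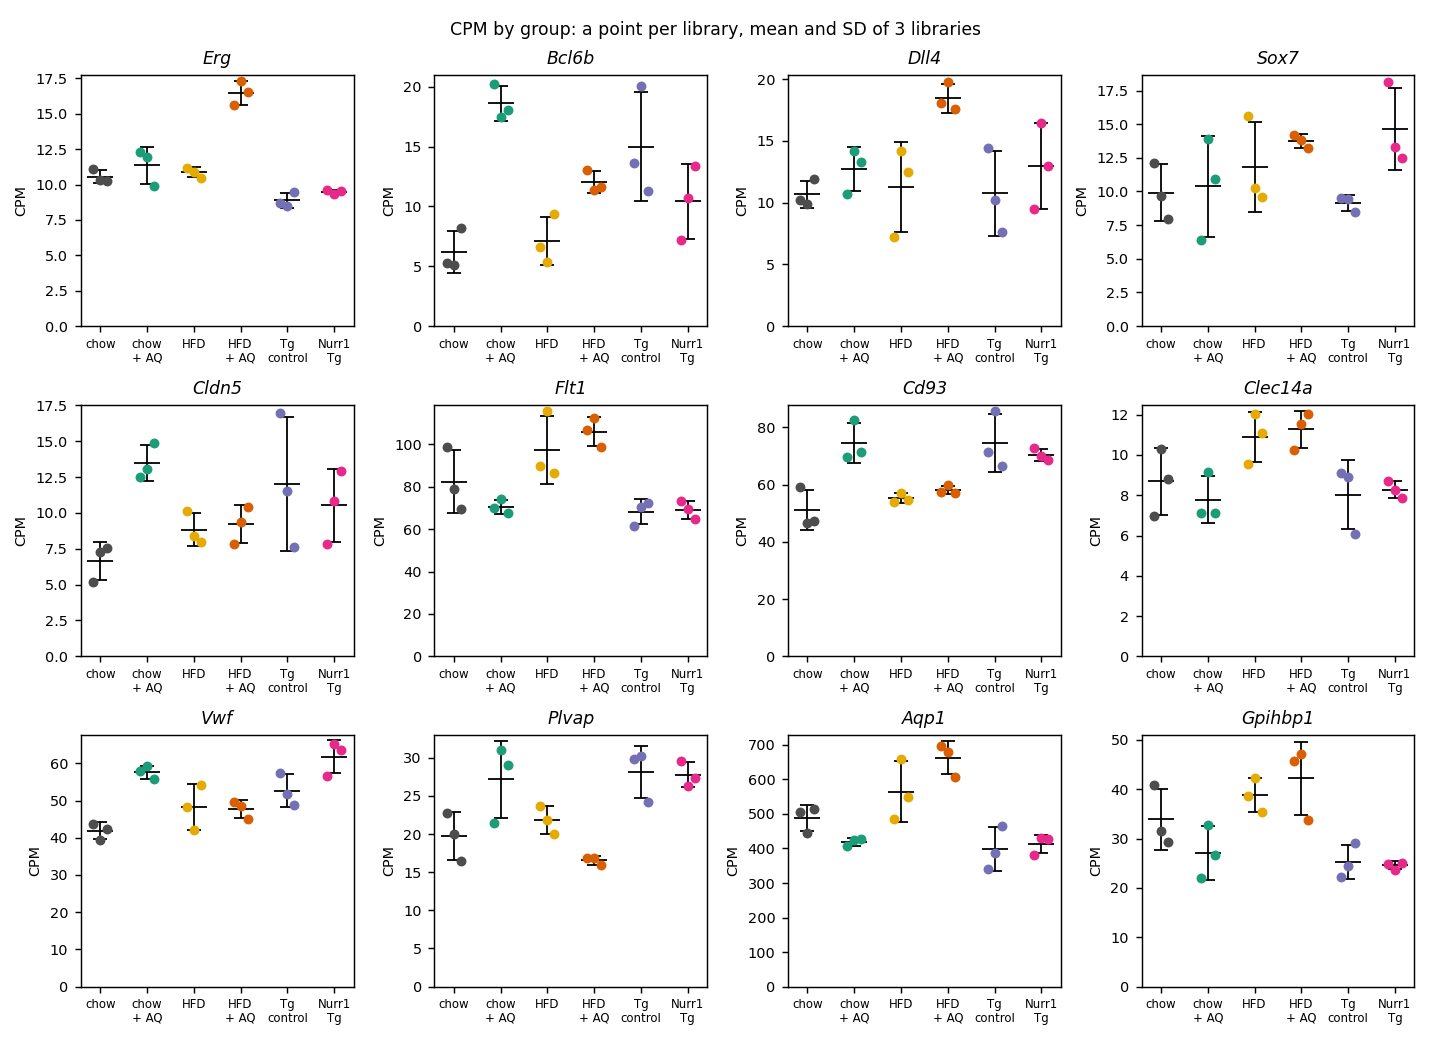
CPM of 12 endothelial genes in the 6 groups; a point is a library and the bars are the mean and SD of 3 libraries, on axes that start at 0. Erg and Dll4 are highest in HFD with AQ, and Bcl6b is low in chow and HFD. Plvap is lowest in the mean in HFD with AQ, at 15.9 to 16.9 CPM, but the third chow library is at 16.4 CPM.

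The largest number of calls came from the comparison of diets among mice given AQ, HFD with AQ against chow with AQ. There 7 of the 40 endothelial genes passed, against 10.6% of all genes tested. Higher on HFD were 5, Aqp1, Erg, Flt1, Gpihbp1 and Clec14a (4.89% of all genes), and lower were 2, Plvap and Cd93 (5.68% of all genes). The groups did not overlap in 18 of the 40, 10 higher and 8 lower, against 33.2% of all genes, 15.8% higher and 17.4% lower. The median over the list was 0.14 on the log2 scale and 0.00 over all genes, and 28 of 40 lay above 0, against 49.6% of all genes. The median was 0.0830 without replicate 1 of chow with AQ, 0.246 without its replicate 2 and 0.204 without replicate 3 of HFD with AQ. There were 4 calls without replicate 3 of chow with AQ or replicate 1 or 2 of HFD with AQ. This comparison shares its libraries with those of AQ, so its calls are no second measurement of the same levels.

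Aqp1 was at 407, 425 and 428 CPM on chow with AQ and at 698, 681 and 609 CPM on HFD with AQ. The 3 values of each group lay close together and far from the other group, with a log2 fold change of 0.65 ± 0.11 (SE, limma adjusted p = 0.00180). Gpihbp1 was at 21.99, 32.8 and 26.6 CPM against 45.8, 47.2 and 33.7 CPM (log2 fold change 0.62 ± 0.15, adjusted p = 0.0138). Its groups were barely apart, 32.8 against 33.7 CPM, and the call was lost without replicate 1 or 3 of chow with AQ or replicate 1 or 2 of HFD with AQ, with adjusted p up to 0.0785. Erg, with the values given above, differed by 0.50 ± 0.09 (adjusted p = 0.00215).

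Among the VEGF receptors only Flt1 (VEGFR1, which binds VEGF with high affinity and signals weakly) passed. It was at 70.0, 74.3 and 67.7 CPM on chow with AQ and at 107, 113 and 98.7 CPM on HFD with AQ. The groups were well separated, and the log2 fold change of 0.58 ± 0.12 (SE, limma adjusted p = 0.00512) passed under all 16 alternatives. Kdr (VEGFR2, the main signalling receptor) lay on the other side of 0, at 73.4, 88.6 and 69.0 CPM against 66.0, 47.9 and 56.4 CPM. Its groups did not overlap either, but the difference of -0.44 did not pass (adjusted p = 0.178). Flt4 (VEGFR3), the angiopoietin receptor Tek, its partner Tie1 and the phosphatase Ptprb had differences between 0.00 and 0.23 and did not pass. Ptprb, the most abundant of them in CPM, was at 133 ± 3.8 and 155 ± 5.5 CPM (SD, n = 3, adjusted p = 0.0944).

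Plvap encodes the protein of the diaphragms that close endothelial fenestrae and caveolae. It was at 21.5, 31.0 and 29.1 CPM on chow with AQ and at 16.9, 16.9 and 15.9 CPM on HFD with AQ. It fell by 0.67 on the log2 scale (SE 0.13, limma adjusted p = 0.00372). Plvap lies on chromosome 8 from 71497765 to 71511752 (GRCm38, minus strand) and overlaps Gtpbp3 on the opposite strand. The sources used here do not say whether counting used strand, so reads from the shared stretch cannot be told apart.

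Cd93 and Clec14a belong to the same lectin-like receptor family and both bind multimerin 2, the product of Mmrn2. They went in opposite directions. Cd93 fell to 57.4, 59.8 and 57.0 CPM from the levels of 69.5 to 82.6 CPM given above, a log2 fold change of -0.35 ± 0.10 (SE, limma adjusted p = 0.0281). Clec14a rose from 7.12, 9.13 and 7.10 CPM to 10.3, 11.6 and 12.02 CPM (log2 fold change 0.49 ± 0.15, adjusted p = 0.0444). Mmrn2 was at 0.13 and did not pass (adjusted p = 0.428). Calls of Cd93 and Clec14a were each lost under 7 of 16 alternatives. For Cd93 these were plain scaling to library totals, the clock score, and leaving out replicate 2 or 3 of chow with AQ or any library of HFD with AQ (adjusted p up to 0.108 without 1 library). For Clec14a they were removal of the GC trend, the clock score, and leaving out replicate 1 or 3 of chow with AQ or any library of HFD with AQ (adjusted p up to 0.158 without 1 library).

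With the clock score as a covariate the median over the list was 0.38. Flt1 and Gpihbp1 passed, at 0.88 (limma adjusted p = 0.0131) and 0.94 (adjusted p = 0.0336). Aqp1 and Erg kept their size, at 0.57 and 0.51, with adjusted p of 0.0970 and 0.0668. Plvap was reduced to -0.22 (adjusted p = 0.515), Cd93 to -0.09 (0.770) and Clec14a to 0.29 (0.547). The score brought in Ptprb, Flt4 and Notch4, for 5 calls in all. Since the score itself did not overlap between the groups, its effect and that of the diet cannot be told apart here.

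Of the 77 other genes of endothelial pathways 14 (18.2%) passed with diet under AQ, against the 10.6% of all genes called in this comparison. Of 20 further endothelial genes 3 were higher and 4 lower. Gpr116 (now Adgrf5), a receptor of lung and vessel endothelium, rose from 149 ± 2.8 to 231 ± 9.5 CPM (SD, n = 3; log2 fold change 0.63, limma adjusted p = 0.000357). Sparcl1 rose from 235 ± 26.5 to 333 ± 10.5 CPM (0.50, adjusted p = 0.00166). Klf4, a flow-responsive transcription factor, fell from 27.8 ± 5.55 to 11.6 ± 0.96 CPM (-1.18, adjusted p = 0.00509). Ece1 had a log2 fold change of -0.41 (adjusted p = 0.0136). Klf4 and Ece1 were lost with the clock score as a covariate, and Ece1 also without replicate 1 or 3 of chow with AQ (adjusted p up to 0.0685), while Gpr116 and Sparcl1 passed under all 16 alternatives.

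Cd36, the fatty acid transporter of capillaries, adipocytes and fibres, was the one of 9 capillary and lipid handling genes to pass. It was at 330 ± 29 and 670 ± 39 CPM (log2 fold change 1.02, limma adjusted p = 0.00246). Of 11 arterial and venous genes 2 passed, both arterial and higher: Gja4, a connexin (0.65, adjusted p = 0.00858), and Efnb2, ephrin B2 (0.53, adjusted p = 0.0246). Of 10 genes of the endothelial BMP pathway the ligand genes Bmp4 (0.77, adjusted p = 0.0106) and Bmp6 (0.43, adjusted p = 0.0246) were higher. Apln, the apelin ligand, was the one called gene of 11 ligands and co-receptors and was lower, at 5.35 ± 0.61 against 3.00 ± 0.12 CPM (-0.66, adjusted p = 0.0271). Pdpn of lymphatic endothelium and fibroblasts was also lower (-0.48, adjusted p = 0.0251), as the one of 5 lymphatic genes. None of the 11 other Notch pathway genes passed. Gja4, Efnb2, Bmp4, Bmp6, Apln and Pdpn were all lost with the clock score, at adjusted p of 0.127 to 0.619. Leaving out 1 library also ended each of them, Gja4 only without replicate 1 of chow with AQ (adjusted p = 0.0513) and Bmp4 only without replicate 3 of that group (adjusted p = 0.0547). Bmp6 and Apln were lost without any library of chow with AQ, Efnb2 and Pdpn without its replicate 2 or 3. Libraries of HFD with AQ that ended a call were replicates 2 and 3 for Bmp6 and Efnb2, replicates 1 and 3 for Pdpn and all 3 for Apln, with adjusted p up to 0.118 over these 4 genes.

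Markers of neighbouring cells moved beside these genes. Among 11 pericyte and smooth muscle markers the pericyte genes Rgs5 (0.65, limma adjusted p = 0.00188) and Kcnj8 (0.56, adjusted p = 0.0435) were higher and Acta2, smooth muscle actin, was lower (-0.74, adjusted p = 0.0485). Their summed level was 876 to 909 CPM on chow with AQ and 956 to 1007 CPM on HFD with AQ. Csf1r of macrophages fell (-0.54, adjusted p = 0.0361), and the summed leukocyte markers were at 147 to 162 CPM on HFD with AQ. Of the fibroblast markers Col3a1 was lower (-0.98, adjusted p = 0.0165) and Lum higher (0.47, adjusted p = 0.0447). Of 7 muscle fibre markers 1 passed, Mb, the myoglobin of oxidative fibres, which rose from 3087 to 5367 CPM in the mean (0.85, adjusted p = 0.0224). The other way, 5 of the 7 fibre markers lay below 0, the median was -0.14, and their sum was 147418 to 164204 CPM on chow with AQ and 125532 to 134486 CPM on HFD with AQ, without overlap. Of 7 adipocyte markers 1 passed, Adig (0.93, adjusted p = 0.0320), while 5 lay below 0 and the median was -0.30. Alas2 of red cell precursors was lower (-0.80, adjusted p = 0.0322). Of these markers Rgs5 alone passed under all 16 alternatives. The others were lost with the clock score and without some single libraries of either group, replicate 3 of chow with AQ in each case. The part of these cells or fibres in the endothelial values was not tested.

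**Figure D3:**
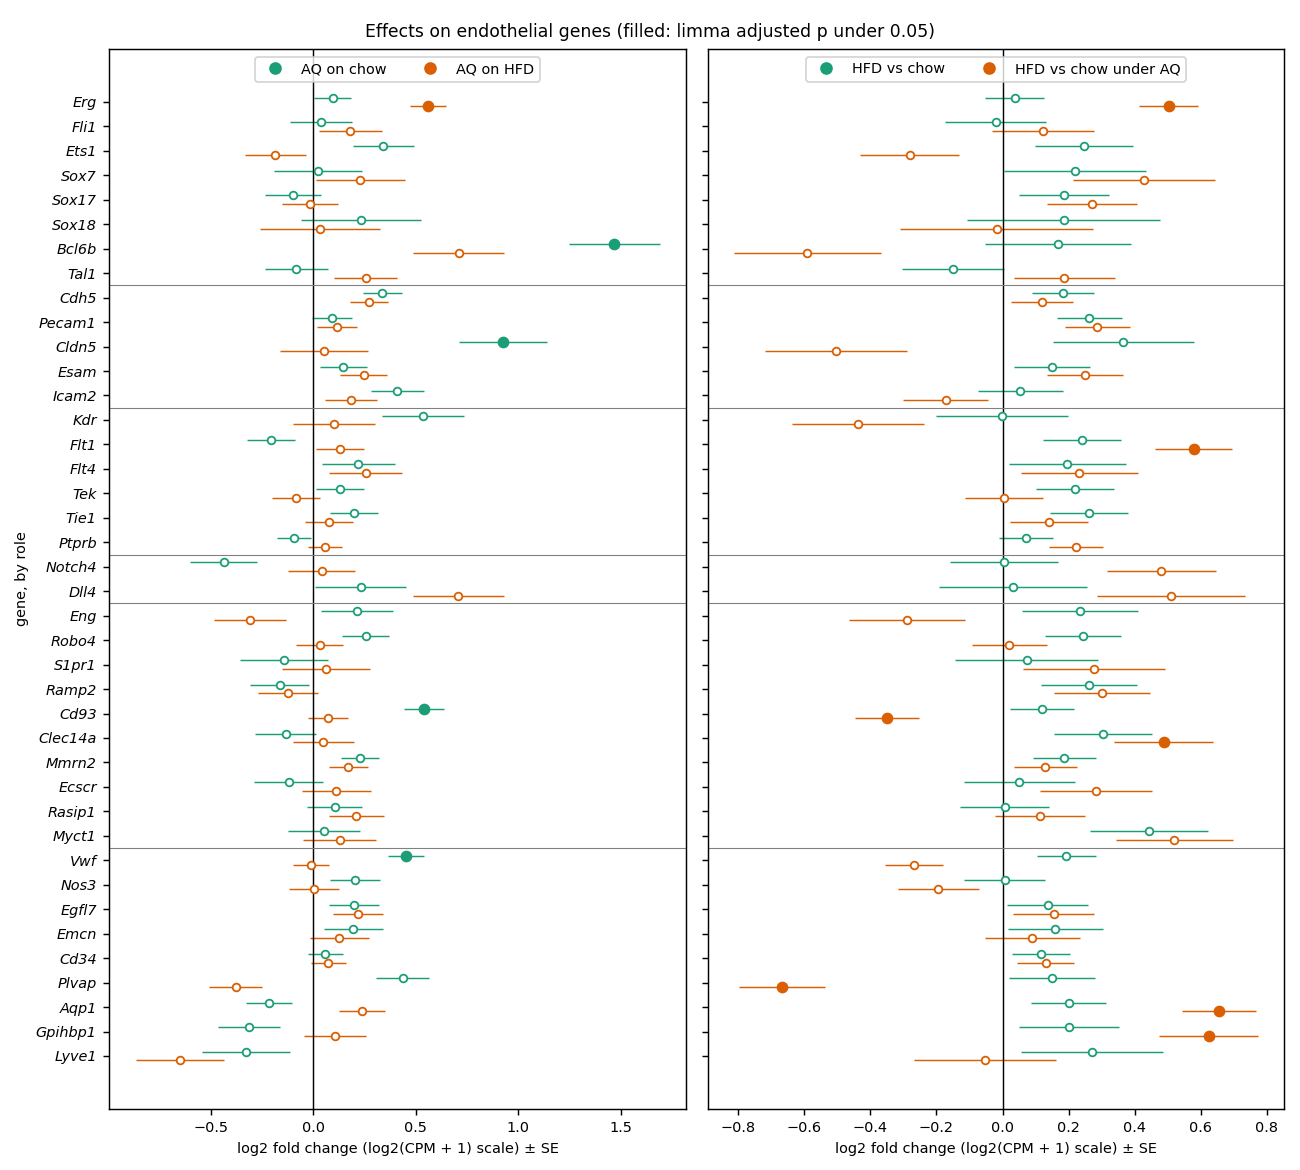
Log2 fold changes (log2(CPM + 1) scale, bars SE) of the 40 endothelial genes by role, for AQ on chow and on HFD (left) and for HFD against chow without and under AQ (right); filled points passed a limma adjusted p of 0.05. Bcl6b has the largest difference, 1.47 for AQ on chow, and under AQ Aqp1 at 0.65 and Plvap at -0.67 lie at opposite ends among the called genes.

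The difference between the AQ effects on the 2 diets was tested directly as the interaction of AQ and diet. Plvap was the 1 endothelial gene to pass, against 0.711% of all genes tested. With AQ it lay 0.44 higher on chow (adjusted p = 0.114) and 0.38 lower on HFD (adjusted p = 0.237), a difference of -0.82 ± 0.18 (SE; limma adjusted p = 0.0470). The 4 groups were at 19.7 ± 3.2 CPM on chow, 27.2 ± 5.0 on chow with AQ, 21.9 ± 1.8 on HFD and 16.6 ± 0.57 on HFD with AQ (SD, n = 3). The call was lost under 14 of 22 alternatives, with the clock score at -0.52 (adjusted p = 0.172), and without chow replicate 2 or 3, chow with AQ replicate 2 or 3, HFD replicate 1 or 2 or any HFD with AQ library. Vwf (-0.46, adjusted p = 0.0932), Erg (0.47, adjusted p = 0.0934) and Cd93 (-0.47, adjusted p = 0.123) came next and did not pass. Over the list 22 of 40 interaction terms lay above 0, against 51.3% of all genes. Calls of Bcl6b, Vwf, Cd93 and Cldn5 on chow and not on HFD are thus not shown to be particular to chow. The same interaction compares the diet effects with and without AQ, and none of the 77 pathway genes passed it. Apart from Plvap, the calls for diet under AQ are therefore not shown to be particular to mice given AQ.

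HFD against chow without AQ gave no call among the 40 endothelial genes (limma), against 0.0479% of all genes tested. At an unadjusted p under 0.05 there were 5, 12.5% of the list against 9.53% of all genes, and edgeR and DESeq2 also called 0. Nearly all differences were small and above 0. This held for 37 of 40, against 49.2% of all genes, and the median was 0.18 on the log2 scale against 0.00 over all genes. The exceptions were Fli1, Tal1 and Kdr, at -0.02, -0.15 and 0.00.

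The genes with the smallest p were Pecam1, Myct1, Tie1 and Vwf. Pecam1 was at 100, 85.8 and 78.1 CPM on chow and at 103, 114 and 99.2 CPM on HFD, and the groups overlapped (0.26 ± 0.10, limma adjusted p = 0.408). Myct1, a membrane protein of angiogenic endothelium, was at 9.12, 11.8 and 7.58 against 13.2, 15.9 and 10.6 CPM (0.44 ± 0.18, adjusted p = 0.444). Tie1 was at 51.5, 44.0 and 38.3 against 53.0, 56.0 and 50.8 CPM (0.26 ± 0.12, adjusted p = 0.496). Vwf was at 48.4, 42.1 and 54.3 CPM on HFD (0.19 ± 0.09, adjusted p = 0.503). Each of these overlapped between the diets. Groups that did not overlap were found in 2 of the 40, Cldn5 and Robo4, a guidance receptor that stabilises vessels, both higher, against 12.4% of all genes and 6.32% higher. In the chow group the third library was the lowest of the 3 in position (-0.29), and without it the median was 0.101.

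Other lists were also above 0 on HFD. All 10 leukocyte and all 7 fibroblast markers were, with medians of 0.30 and 0.40, and the adipocyte markers had a median of 1.27. None of these markers and none of the 77 pathway genes passed. Summed adipocyte markers were at 44.4 to 107 CPM on chow and 112 to 164 CPM on HFD, and their part in the endothelial values was not tested.

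**Figure D4:**
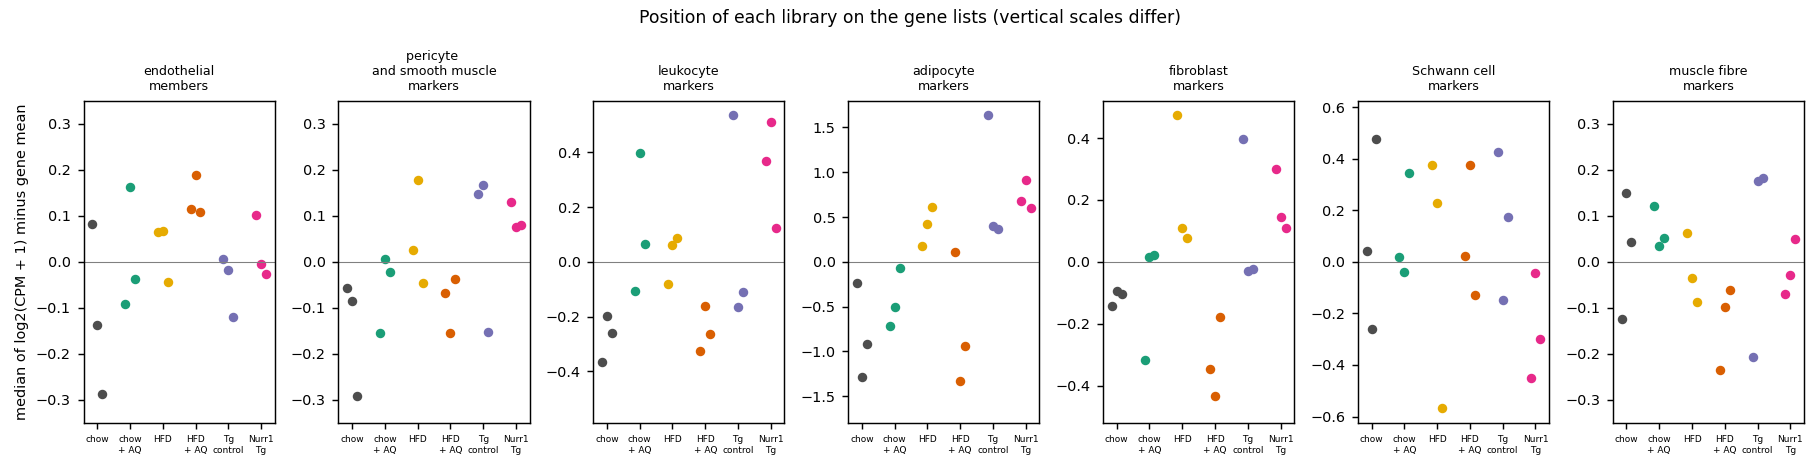
Position of each library (point) by group on the endothelial genes and on 6 lists of markers of other cell types: the median over the list of log2(CPM + 1) minus the gene's mean, with a vertical scale for each list. The endothelial positions run only from -0.29 to 0.19, while the leukocyte markers differ between chow and chow with AQ.

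The Nurr1 transgene was compared with its own controls on HFD. None of the 40 endothelial genes passed (limma), against 0.599% of all genes tested. At an unadjusted p under 0.05 there were 4, 10.0% of the list against 8.95% of all genes, and edgeR and DESeq2 called 0 as well. The median difference was 0.09 on the log2 scale, 29 of 40 lay above 0, against 49.7% of all genes, and the median over all genes was 0.00. Without transgenic replicate 1 the median over the list was 0.0367, and without control replicate 3 it was 0.0516. Of the markers of other cells none passed. All 10 leukocyte markers (median 0.24) and all 4 satellite cell markers (0.35) lay above 0, and all 5 Schwann cell markers (-0.45) below. Summed leukocyte markers were at 162 to 281 CPM in the controls and 206 to 263 CPM in the transgenic mice, and their part in the endothelial values was not tested.

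Sox7, a SOX factor of vessel development, had the smallest p. It was at 9.50, 9.45 and 8.44 CPM in the controls and at 18.1, 13.3 and 12.5 CPM in the transgenic mice, without overlap (0.61 ± 0.22, limma adjusted p = 0.330). Its relatives Sox17 and Sox18 had differences of 0.14 and 0.42 and overlapped. Vwf was at 57.5, 51.8 and 48.8 CPM against 56.7, 65.2 and 63.6 CPM (0.23 ± 0.09, adjusted p = 0.398). Cd34 was at 100, 88.6 and 83.4 CPM against 108, 103 and 101 CPM, without overlap (0.20 ± 0.09, adjusted p = 0.491). Bcl6b was at 13.6, 20.1 and 11.3 CPM in the controls and at 7.17, 10.7 and 13.4 CPM in the transgenic mice, with overlap (-0.49 ± 0.22, adjusted p = 0.528). The groups failed to overlap in 3 of the 40, Sox7, Cd34 and Mmrn2, all higher, against 14.3% of all genes and 6.99% higher. Erg was at 8.67, 8.49 and 9.49 CPM in the controls and 9.61, 9.31 and 9.55 CPM in the transgenic mice, the lowest levels of the gene in the series.

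One pathway gene passed with the transgene. Klf2, the flow-induced factor that keeps endothelium quiescent and is also expressed by leukocytes, fell from 29.5 ± 7.6 to 12.1 ± 1.7 CPM (SD, n = 3; log2 fold change -1.19, limma adjusted p = 0.0453). As the clock scores of transgenic and control libraries were apart, the covariate fit was read beside it: with the score Klf2 was at -1.07 (adjusted p = 0.153). In all the call was lost under 9 of 16 alternatives, with adjusted p up to 0.226. Besides the clock score these were a pseudocount of 4, edgeR, removal of the GC trend, and leaving out replicate 2 or 3 of the controls or any transgenic library. Klf2 was also called lower for diet under AQ, from 34.1 ± 16.5 CPM on chow with AQ to 15.8 ± 1.5 CPM on HFD with AQ (-0.97, limma adjusted p = 0.0255). The chow with AQ libraries were unequal, at 52.9, 21.7 and 27.8 CPM, and this call was not followed under the alternatives.

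The most abundant gene of each role, by mean CPM, gives the range over all 6 groups. Ets1, the broadly expressed ETS factor, went from 27.4 ± 4.1 CPM on chow to 38.7 ± 9.7 CPM in the transgene controls (SD, n = 3). Cdh5 went from 108 ± 12 CPM on chow to 148 ± 9.1 CPM on HFD with AQ, and Ptprb from 123 ± 4.8 CPM in the transgene controls to 155 ± 5.5 CPM on HFD with AQ. Notch4 went from 18.3 ± 3.2 CPM on chow with AQ to 25.95 ± 4.5 CPM on HFD with AQ. Eng, the endothelial co-receptor for TGF-beta and BMP9, went from 59.6 ± 3.5 CPM on HFD with AQ to 86.2 ± 16 CPM in the transgenic mice. Aqp1, of the blood-facing genes, went from 398 ± 63.5 CPM in the transgene controls to 663 ± 47.7 CPM on HFD with AQ. Eng overlaps Fpgs and Egfl7 overlaps Agpat2 on the opposite strand, and Ramp2 overlaps Vps25 on the same strand. Reads from those stretches cannot be told apart.

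The 2 untreated wild-type groups on HFD were set side by side without a test, since the labels give them separate designs, for 7 genes chosen after their values were seen. Bcl6b was at 7.11 ± 2.0 CPM in the HFD group and at 14.99 ± 4.6 CPM in the transgene controls (SD, n = 3). Cd93 was at 55.3 ± 1.65 and 74.5 ± 10 CPM, and Plvap at 21.9 ± 1.8 and 28.1 ± 3.4 CPM. These 3 were higher in the mean in the transgene controls. The others were lower in the mean, Aqp1 at 565 ± 87 and 398 ± 64 CPM and Gpihbp1 at 38.8 ± 3.5 and 25.3 ± 3.5 CPM. Erg was lower too, at 10.9 ± 0.35 and 8.88 ± 0.53 CPM, without overlap. Dll4 differed little, at 11.3 ± 3.7 and 10.8 ± 3.4 CPM, with overlap. The clock scores of these groups, given above, did not overlap either.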

How the data were processed

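RNA was extracted with TRIzol and sequenced as single-end reads, per the labels' protocols. The authors deposited a table of 12558 genes named CPM, treated as a signal because its columns sum to 929993 to 1071538; from the values, the deposited signal was made by scaling gene counts with a factor per library. TopHat2 2.0.12, edgeR and the builds GRCm38 and mm10 are named per the submitters' processing notes. The sources used here name no counter, annotation or strand setting. All values (100% within a relative tolerance of 1e-06) were whole reads times a factor per library, and 10404895 to 16082994 reads per library were recovered, so 3 reads equal 0.191 to 0.277 CPM; such floors cover counting error only.

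The main test was limma 3.58.1 (R 4.3.3, trend) on log2(CPM + 1), two-sided, with 6 groups in a single fit and 12 residual degrees of freedom. P-values were adjusted (Benjamini-Hochberg) over 12524 genes that reached 1 CPM in 3 or more libraries. Fold changes on this scale understate the change of low genes. P-values set a difference between groups against the spread of libraries within groups, pooled over all 6 groups and drawn toward a trend over all genes. No exact permutation test was used, since 3 libraries against 3 cannot give a p below 0.1. Levels are mean ± SD.

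The endothelial genes, 7 pathway lists (77 of 80 genes in the table, 4 by an older symbol) and 8 marker lists (53 of 60) were chosen with earlier results of these data known. Values were given per library for genes called and for the 4 smallest p in each of 6 comparisons; up to 4 called genes were named per other list. Symbols were matched to GENCODE M21 (12024 directly, 465 by older symbols). Alternatives were pseudocounts 0.25 and 4, no filter, plain scaling to library totals, only the groups compared, a replicate block, edgeR 4.0.16 and DESeq2 1.42.0 on the recovered reads, removal of the GC trend (loess, span 0.3), leaving out each library and, added after seeing the data, the clock score and the same settings for genes of the other lists. The fit was also run on simulated data with the same relative spread for all genes and groups. That run does not cover a spread that differs between groups, and no result here rests on it. Libraries of a group differed by more than sampling noise, the lowest chi-square over its degrees of freedom being 4.22.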

Additional observations from a re-analysis of the deposited data

Results flagged for a closer look

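Plvap, the diaphragm protein gene, differed between diets in its response to AQ by a test of the difference itself. The effect on HFD minus that on chow was -0.82 on the log2 scale (limma adjusted p = 0.0470). All 3 HFD with AQ libraries, at 16.9, 16.9 and 15.9 CPM, lay below the lowest HFD library at 20.1 CPM, while on chow the libraries with AQ, at 21.5, 31.0 and 29.1 CPM, overlapped those without, at 22.8, 20.04 and 16.4 CPM. The clock score differed between the groups as well, and with it as a covariate the difference was -0.52.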

How the results depend on the processing

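Of 824 alternative values of the named genes, 637 stayed on the same side of the threshold, 184 lost it, 3 gained it and 0 changed sign. Of the 13 calls among endothelial genes, 2 held under all alternatives run, Bcl6b for AQ on chow and Flt1 for diet under AQ. Alternatives were followed for 23 calls in other lists, up to 4 per list and comparison. Of these 4 held under all, Cd36, Gpr116, Sparcl1 and Rgs5 for diet under AQ. Further called genes of the list of further endothelial genes, among them Klf2 for diet under AQ, were not followed.

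For AQ on chow, plain scaling to library totals, the fit of only the groups compared and the clock score each left 1 endothelial call, and removal of the GC trend left 2. For AQ on HFD the fit of only the groups compared gave 0. For diet under AQ that fit gave 17 calls. For the interaction, a pseudocount of 4, plain scaling to library totals, only the groups compared, GC removal and the clock score each gave 0, and DESeq2 gave 2. With the clock score the median over the list was 0.0152 for AQ on chow, 0.38 for diet under AQ and 0.14 for the interaction. The fit of only the groups compared has fewer residual degrees of freedom. Why any of these settings moved the counts or medians was not tested.

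Leaving out 1 library gave 0 to 1 endothelial calls for AQ on HFD, 1 to 4 for AQ on chow, 4 to 7 for diet under AQ, 0 to 2 for the interaction, and 0 throughout for HFD against chow and for the transgene. The median over the list then ranged from 0.10 to 0.24 for HFD against chow, 0.0587 to 0.14 for AQ on HFD, 0.0629 to 0.20 for AQ on chow, 0.0830 to 0.25 for diet under AQ, -0.07 to 0.11 for the interaction and 0.0367 to 0.12 for the transgene. Plain scaling moved the median of all genes by at most 0.08.

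Replicate numbers did not pair the libraries. Deviations of same-numbered libraries correlated at -0.21 to 0.31, and in no comparison were all 3 above 0.1. With the replicate block, endothelial calls were 1, 3, 10, 1, 0 and 0 for AQ on HFD, AQ on chow, diet under AQ, interaction, HFD against chow and transgene.

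Depth limits the lowest endothelial gene, Tal1, which had 32 to 62 reads per library, so that its coefficient of variation of 17.1% is of the order of counting error. Whether depth limits other genes was not tested.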
